A study of Bubalus bubalis with 12 samples.

Results

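The tubulin polymerization-promoting proteins TPPP and TPPP3, the tubulin genes and the centrosomal gene CEP70 were followed in the ruminal wall of dairy buffaloes fed with or without green forage. The set held 10 genes, of which 8 had a row under their name among the 34037 genes of the expression table: TPPP3, TPPP, LOC102397197, TUBA4A, TUBB, TUBB4B, TUBB6 and CEP70. TUBA1B and TUBG1 were not analysed here. Ruminal wall was taken at slaughter from 12 Italian Mediterranean dairy buffaloes, which were adult, multiparous animals of a commercial herd. The 6 animals of the control group were fed a total mixed ration (TMR). The 6 animals of the treated group were fed a TMR in which green ryegrass made up about 30% of the diet. Nitrogen and energy were matched between the diets. The treated diet also held less corn silage and alfalfa hay, no soybean meal, and more forage relative to concentrates. Each animal gave 1 total RNA library, and the animals were not pooled, so that n = 6 per group throughout.

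TPPP3, TPPP, LOC102397197 and CEP70 were chosen by their values in the same comparison, since all of them are in the list of genes that the study called different between the diets in these animals. The study made these calls with edgeR at a nominal p-value under 0.05, after no gene had passed adjustment. It also reported TPPP3 and LOC102397197 from a second method, NOISeq, and TPPP3 by rt-qPCR in the same samples. The remaining tubulin genes were added as relatives of LOC102397197. The differences between diets of the 8 genes are therefore described with their standard errors (SE) and without a test. Tests are given for what did not decide the choice, which is the order of the levels, the variation between animals of a group and the other genes of the microtubule system.

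Microtubules are hollow filaments built from dimers of alpha- and beta-tubulin, and several genes encode near-identical forms of each subunit. TPPP and its relative TPPP3 bind microtubules and favour their assembly into bundles, and TPPP is best known from the myelin-forming cells of the brain. CEP70 is a protein of the centrosome, the main site at which microtubules start, and it promotes their assembly. The ruminal wall is covered by a stratified squamous epithelium that lies on connective tissue and smooth muscle, and dividing cells of its basal layer build their spindles from tubulin. LOC102397197 has no symbol of its own in the table, and the study names it as tubulin alpha-1D.

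Levels are given as FPKM, counted fragments relative to gene length and library depth, which allows genes to be compared with each other. Between 10531541 and 12948372 fragments were counted per animal. The markers KRT5 and KRT15 of the basal epithelium were abundant, with medians of 1610 and 801 FPKM in the control group and 1640 and 918 FPKM in the treated group. Smooth muscle markers were at low levels. DES, the muscle filament protein desmin, had medians of 3.11 FPKM in the control group and 1.46 FPKM in the treated group. TAGLN, another marker of smooth muscle, had medians of 9.29 and 4.59 FPKM. A change in RNA level in whole tissue cannot tell fewer cells of a type from less RNA per cell. The animal called control replicate 6 was the lowest of its group in 7 of the 8 genes, and results that rest on it or on treated replicate 6 are also given without them.

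TPPP3 had a higher level than TPPP and, with all animals, a larger difference between diets, though the differences were not compared by a test. Without treated replicate 6 the log2 differences came closer, at 1.03 (SE 0.27) for TPPP3 and 0.87 (SE 0.22) for TPPP. In the control group, the FPKM of TPPP3 ranged from 8.85 to 29.2 with a median of 18.8. In the treated group it ranged from 28.7 to 51.1 with a median of 37.0. Treated animals exceeded every control animal in 5 of 6 cases, and the lowest treated animal, replicate 1, was just under the highest control animal, also numbered replicate 1. The mean was 19.3 ± 7.59 FPKM (SD, n = 6) in the control group and 38.3 ± 7.74 FPKM (SD, n = 6) in the treated group, which is a ratio of 1.98. On the scale of log2(FPKM + 0.01) the difference was 1.07 with an SE of 0.25. These values rested on 98 to 648 reads per animal. Without control replicate 6 the log2 difference of TPPP3 was 0.86 with an SE of 0.20.

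TPPP was expressed at a lower level than TPPP3 in every animal, and the ratio of TPPP3 to TPPP in FPKM ran from 2.69 to 5.43 in the control group. Control animals had between 2.66 and 6.53 FPKM of TPPP and a median of 5.15. Treated animals had between 3.03 and 9.73 FPKM and a median of 8.47. Among the treated animals 5 lay above every control animal, between 7.60 and 9.73 FPKM, while treated replicate 6 lay among the lowest control animals. The mean was 4.91 ± 1.54 FPKM (SD) in the control group and 7.69 ± 2.40 FPKM (SD) in the treated group. The log2 difference was 0.62 with an SE of 0.30, 0.87 with an SE of 0.22 without treated replicate 6, and 0.46 with an SE of 0.28 without control replicate 6. Treated replicate 6 had TPPP3 at 42.4 FPKM, the second highest value of its group, so that its ratio of TPPP3 to TPPP reached 14.0, against 3.25 to 5.25 in the other treated animals.

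LOC102397197, an alpha-tubulin gene, had a difference close to that of TPPP3, and which of them was larger changed with the animals left out. Its level among control animals ran from 8.25 to 29.8 FPKM around a median of 23.4. Among treated animals it ran from 26.1 to 64.9 FPKM around a median of 47.3. Above every control animal lay 5 treated animals, and treated replicate 3 fell within the control range. The mean was 22.2 ± 8.01 FPKM (SD) in the control group and 45.8 ± 13.9 FPKM (SD) in the treated group, a ratio of 2.06. The log2 difference was 1.10 with an SE of 0.30, and it was 0.83 with an SE of 0.22 when control replicate 6, the lowest animal, was left out.

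TUBA4A, the other alpha-tubulin among the 8 genes, was the most abundant of the 8 genes and had no such difference. Control animals had 241 to 526 FPKM, with a median of 438. Treated animals had 297 to 505 FPKM, with a median of 404, and no treated animal was above the highest control animal. The log2 difference of TUBA4A was 0.01 with an SE of 0.19. By mean FPKM, TUBA4A ranked at position 187 among the genes of the table.

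Set against TUBA4A within each animal, LOC102397197 amounted to 3.43% to 6.55% of the TUBA4A level in the control group, with a median of 5.55%. Among treated animals this share ranged from 6.28% to 13.2% with a median of 11.7%, and 5 of 6 treated animals exceeded every control animal. A scaling factor that applies to a whole library cancels in such a ratio. Since LOC102397197 was chosen by this contrast and TUBA4A differed little, the ratio restates the difference of LOC102397197 and is no separate support. In the RefSeq gene order of the NDDB_SH_1 assembly, which is another build than that of the reads, the 2 alpha-tubulin genes are direct neighbours among the protein-coding genes, and the next protein-coding gene on the side of LOC102397197 is DNAJB2, a co-chaperone gene. DNAJB2 was at 19.2 ± 4.81 FPKM (SD) in the control group and 19.1 ± 2.82 FPKM (SD) in the treated group. The single neighbour of TPPP3 in that order that was tested, ZDHHC1, was at 2.497 ± 1.09 FPKM (SD) in the control group and 2.18 ± 0.94 FPKM (SD) in the treated group. DNAJB2 and ZDHHC1 were named for their position and after the values of LOC102397197 and TPPP3 were known. Genes of near-identical sequence can share or lose reads under the filter on mapping quality that was applied to the reads, so that the levels of single tubulin genes are uncertain to that extent.

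**Figure D1:**
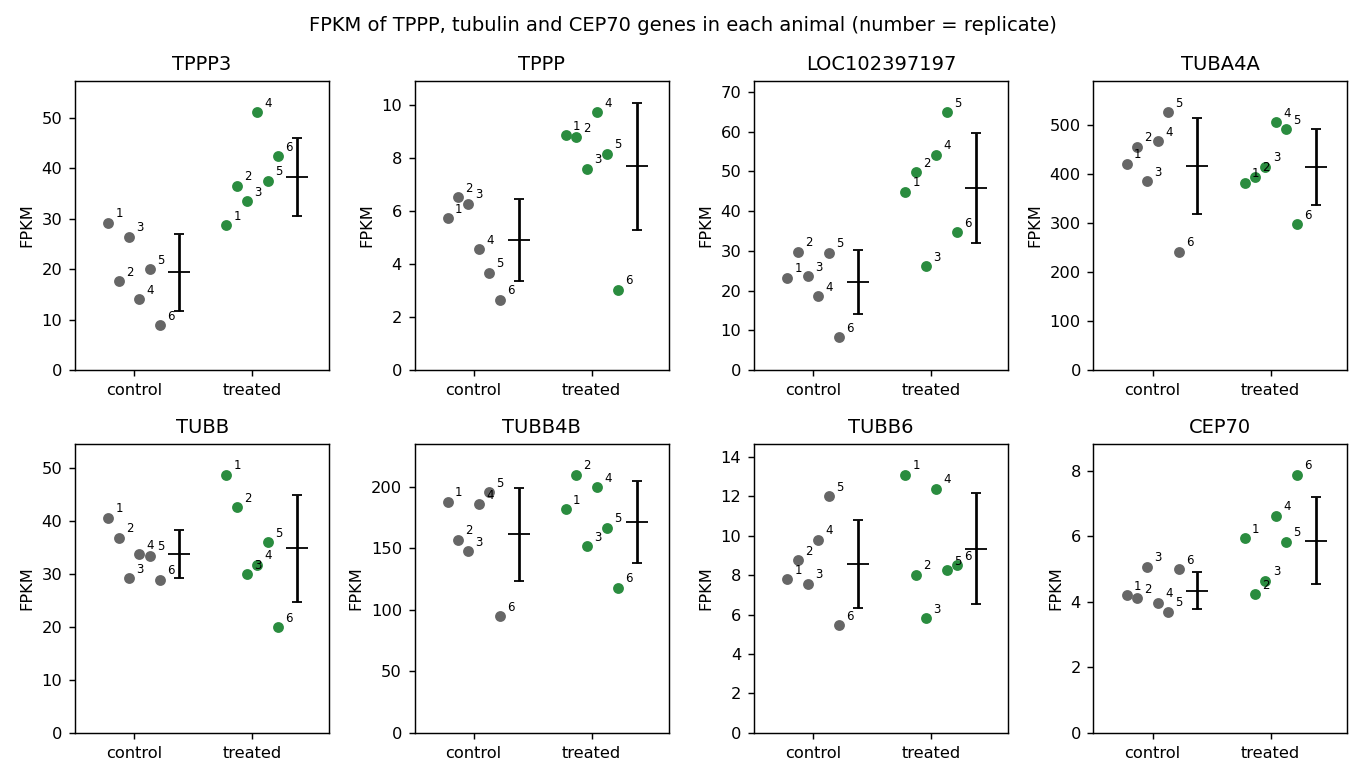
FPKM (vertical axes, linear and starting at 0, a scale of its own per gene) of the 8 genes in each of the 6 control animals (grey) and 6 treated animals (green), with the number of the replicate beside each point and the group mean ± SD in black. In TPPP3, TPPP and LOC102397197, 5 of 6 treated animals lie above every control animal, whereas the groups share their range in TUBA4A, TUBB, TUBB4B and TUBB6.

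The beta-tubulins differed little between diets. TUBB4B, a widely expressed beta-tubulin that is also used in cilia, had a median of 171 FPKM among control animals (94.7 to 196) and of 175 FPKM among treated animals (118 to 210). Its groups overlapped over nearly the whole range, and the log2 difference was 0.10 with an SE of 0.19. TUBB, the general beta-tubulin of dividing cells, had a median of 33.5 FPKM among control animals (28.9 to 40.6) and of 33.8 FPKM among treated animals (19.9 to 48.7). The treated animals held both the lowest and the highest TUBB values, in replicates 6 and 1. The log2 difference of TUBB was -0.0014 with an SE of 0.19. TUBB6 ranged from 5.45 to 12.02 FPKM among control animals (median 8.28) and from 5.81 to 13.1 FPKM among treated animals (median 8.39). Its groups overlapped as well, and the log2 difference of TUBB6 was 0.11 with an SE of 0.22.

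CEP70 had the lowest median of the 8 genes over 12 animals, at 4.81 FPKM, though TPPP exceeded it in only 9 of 12 animals. In the control group, the FPKM of CEP70 ranged from 3.70 to 5.07 with a median of 4.16. In the treated group it ranged from 4.23 to 7.88 with a median of 5.90. Above every control animal lay 4 treated animals, and replicates 2 and 3 lay within the control range. The mean was 4.34 ± 0.56 FPKM (SD) in the control group and 5.86 ± 1.33 FPKM (SD) in the treated group, and the log2 difference was 0.41 with an SE of 0.17. CEP70 was the single gene of the 8 in which control replicate 6 was not low, with 4.99 FPKM, and treated replicate 6 had its highest value.

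For all genes together, a limma test found 158 of 12657 tested genes with a nominal p-value under 0.05, a share of 1.25%. The treated group had the higher mean in 101 of them and the lower mean in 57. None passed an adjusted p-value of 0.05 in limma, a share of 0%, and the smallest adjusted p-value was 0.9997. The control and treated animals did not overlap at all in 7 genes, or 0.0553% of those tested, and in none of the 8 genes described here. All 8 genes passed the filter on reads that defined the tested genes. Since the 8 genes include those chosen on this contrast, nothing was read from their share.

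**Figure D2:**
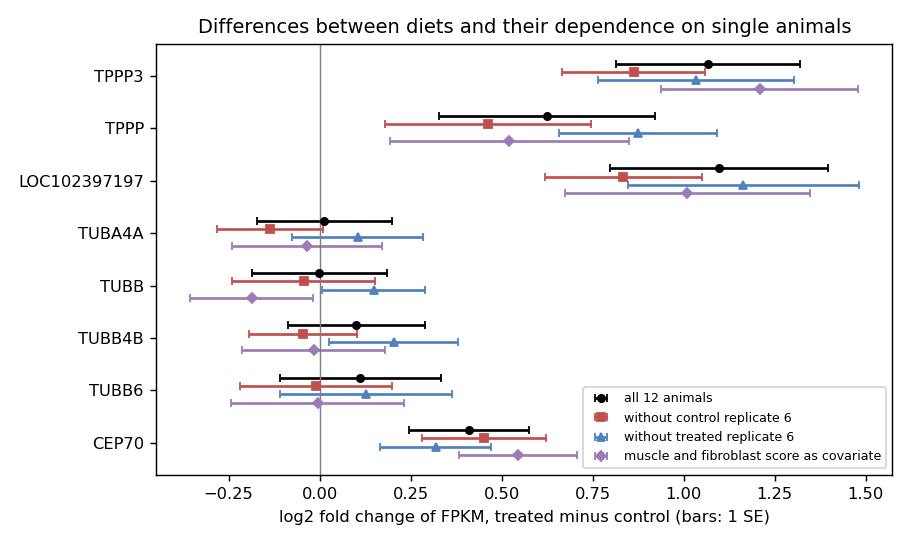
Difference of the group means of log2(FPKM + 0.01), treated minus control (horizontal axis), with bars of 1 SE, for the 8 genes with all 12 animals, without control replicate 6, without treated replicate 6, and with the muscle and fibroblast score added as covariate. TPPP3 and LOC102397197 stay at 0.83 or above in the 4 versions drawn, TPPP moves between 0.46 and 0.87, CEP70 between 0.32 and 0.55, and the beta-tubulins and TUBA4A lie between -0.19 and 0.20.

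The levels of the 8 genes spanned a wide range in every animal. By the median over 12 animals the order was TUBA4A with 418 FPKM, TUBB4B with 175, TUBB with 33.5, LOC102397197 with 29.6, TPPP3 with 28.9, TUBB6 with 8.39, TPPP with 6.40 and CEP70 with 4.81 FPKM. Neighbours in this order were compared within animals by a two-sided exact permutation test over sign changes, with Benjamini-Hochberg adjustment over the 7 pairs. TUBA4A exceeded TUBB4B in 12 of 12 animals, by 1.32 ± 0.19 (SD) on the log2 scale, and the exact p-value was 0.000488 (adjusted p = 0.00114), the smallest that 12 animals allow. TUBB4B exceeded TUBB and TPPP3 exceeded TUBB6 in 12 of 12 animals with the same p-value, by 2.28 and 1.59 on the log2 scale. TUBB6 exceeded TPPP in 10 of 12 animals, by 0.57 on the log2 scale (exact p = 0.00928, adjusted p = 0.0162). TUBB was not separated from LOC102397197 (exact p = 0.507), nor LOC102397197 from TPPP3 (exact p = 0.135), nor TPPP from CEP70 (exact p = 0.285). The test pooled the diets, so that the spread behind these p-values includes the difference between diets. TUBB was above LOC102397197 in every control animal, with medians of 33.5 and 23.4 FPKM. In the treated group the medians were 33.8 and 47.3 FPKM, and LOC102397197 was the higher gene in most animals.

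The table held 8 further genes of the tubulin list, of which 3 were tested. TUBB2A, a beta-tubulin close in sequence to several relatives, was at 22.9 ± 7.66 FPKM (SD) in the control group and 25.4 ± 7.18 FPKM (SD) in the treated group. TUBE1 and TUBD1, which encode epsilon- and delta-tubulin of the centriole, had means of 5.49 and 2.24 FPKM in the control group and 5.99 and 2.59 FPKM in the treated group. TUBA8, TUBB4A, TUBB1, TUBG2 and TPPP2 had at most 22 reads in any animal and were not tested, and TUBAL3 was at 0 in all 12 animals. TPPP2, the third TPPP gene, lay between 0.12 and 0.24 FPKM among control animals and between 0.05 and 0.55 FPKM among treated animals.

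Outside the 8 genes, nominal calls in the microtubule system were about as rare as among all genes. The low count of calls is therefore not particular to this system. Of 143 further genes in 6 lists, 136 were in the table and 115 were tested, and in 1 of these the nominal limma p-value was under 0.05, a share of 0.87% against the 1.25% of all genes. The median log2 difference over the 115 genes was 0.01, the same as over all genes tested to 2 decimals, and 60 of them were above 0. The gene with a nominal p-value was CCP110, which caps centrioles and holds back the growth of cilia. It lay between 4.75 and 6.56 FPKM among control animals and between 3.41 and 5.23 FPKM among treated animals, so that the groups overlapped in part. The log2 difference was -0.36 with an SE of 0.14, and the limma p-value was 0.0267, with an adjusted p-value of 0.9997. The nominal p-value of CCP110 rose to between 0.0511 and 0.0672 in limma when control replicate 1 or 4 or treated replicate 1, 3 or 6 was left out, with log2 differences of -0.34, -0.30, -0.33, -0.33 and -0.30 in that order.

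By list, none of the 3 further tubulins tested had a nominal p-value under 0.05, and their median log2 difference was 0.17. The list of tubulin-folding genes held 23 tested genes with 0 nominal calls in limma and a median log2 difference of 0.01. Its most abundant members were CCT3, a subunit of the chaperonin that folds tubulin, at 195 ± 22.4 FPKM (SD) in the control group and 191 ± 44.4 FPKM (SD) in the treated group, and PFDN5, a prefoldin subunit, at 101 ± 10.8 and 102 ± 19.6 FPKM (SD). The genes of the gamma-tubulin ring complex and centrosome numbered 30, with CCP110 as the single nominal call and a median of 0.03. AKAP9, an anchoring protein of the centrosome and Golgi, was at 31.3 and 28.1 FPKM in the control and treated groups, and TUBGCP2, a core subunit of the ring complex, at 20.3 and 20.8 FPKM.

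Of 36 tested genes for microtubule-associated and severing proteins, 0 had a nominal call in limma, and the median log2 difference was 0.01. EML4, which binds and stabilises microtubules, was at 59.8 and 56.7 FPKM in the control and treated groups, and CLIP1, which tracks their growing ends, at 51.8 and 50.3 FPKM. The 15 tubulin-modifying enzymes had 0 nominal calls and a median of -0.06, with TTLL12 at 32.9 and 32.5 FPKM and the deacetylase SIRT2 at 26.3 and 25.0 FPKM. The list of TPPP relatives and of kinases that act on TPPP held 8 tested genes with 0 nominal calls and a median of -0.09. In that list LIMK2 and ROCK1, kinases that control the cytoskeleton, were at 65.5 and 28.6 FPKM in the control group and at 64.8 and 27.0 FPKM in the treated group.

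**Figure D3:**
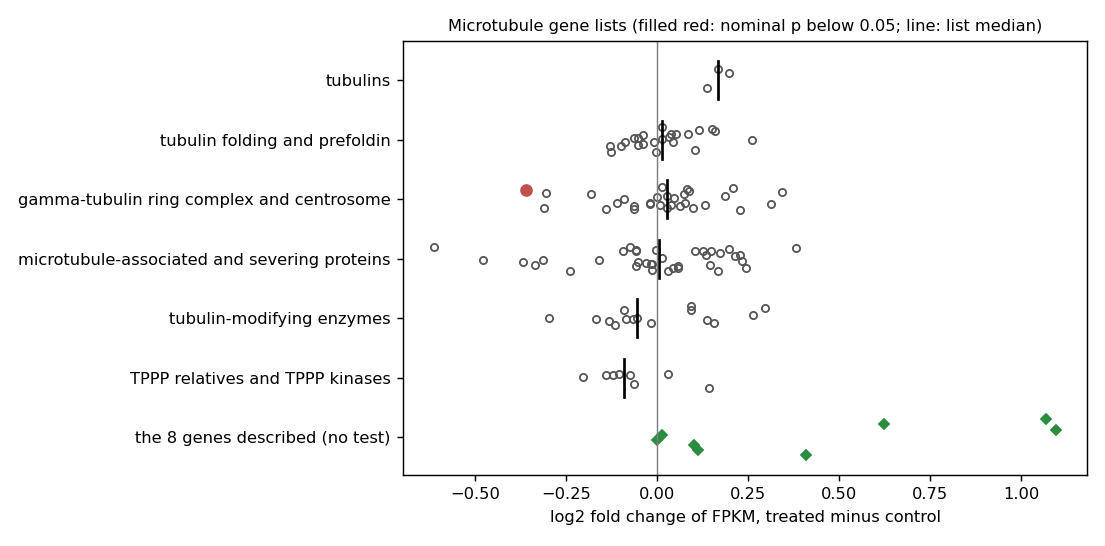
Difference of group means of log2(FPKM + 0.01), treated minus control (horizontal axis), for the 115 tested genes of 6 microtubule lists (open circles; filled red circle, nominal limma p-value under 0.05; vertical line, median of the list) and for the 8 genes described (green diamonds, not tested). The red point is CCP110 at -0.36, the listed genes lie between -0.61 and 0.38, and TPPP3, TPPP, LOC102397197 and CEP70 lie at 0.41 or above.

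Genes of motile cilia, which are rich in tubulin, were near 0. Of 17 ciliary genes measured, 7 were at 0 in every animal, among them FOXJ1, the main regulator of motile cilia, and RSPH1. The summed level of the list was 0.288 to 0.807 FPKM in the control group and 0.443 to 2.32 FPKM in the treated group. CFAP43, the most abundant of the list and the single member tested, was at 0.174 ± 0.0822 FPKM (SD) in the control group and 0.489 ± 0.615 FPKM (SD) in the treated group (0 nominal calls in limma), and CCDC39 was at 0.113 and 0.124 FPKM. The glial and neuronal markers GFAP, SOX10 and ELAVL4 had at most 1 read in any animal, but 2 of the 12 genes of their list were tested. The summed level of that list was 5.28 to 16.2 FPKM in the control group and 2.34 to 8.53 FPKM in the treated group.

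Markers of muscle and connective tissue had lower means in the treated group, where TPPP3 and LOC102397197 had higher ones. Of 7 tested smooth muscle genes 7 had a log2 difference below 0, with a median of -0.72 against 0.01 over all tested genes. Genes of a list were measured in the same animals and are not separate observations. The summed level of the smooth muscle list was 29.7 to 51.6 FPKM in the control group and 16.9 to 42.3 FPKM in the treated group. DES had the single nominal limma p-value of the list (14.3% of the 7 genes, against 1.25% of all genes), with a log2 difference of -1.04 and an SE of 0.42. The study had already listed DES and MYH11, another gene of the list, from these animals. Of 8 fibroblast genes 8 were below 0, with a median of -0.66 and 0 nominal calls in limma, and their summed level was 45.5 to 275 FPKM in the control group and 20.4 to 176 FPKM in the treated group. With the score of both lists as a covariate, the log2 differences were 1.21 for TPPP3, 0.52 for TPPP, 1.01 for LOC102397197 and 0.55 for CEP70. The lists of the remaining cell types had 0 nominal calls in limma each, with median log2 differences of 0.08 for the basal and -0.01 for the suprabasal epithelium, 0.04 for cell division, -0.08 for endothelium, -0.13 for leukocytes and -0.58 for the 2 tested genes of enteric glia and neurons.

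Whether the 4 chosen genes varied together was asked within the groups, after each group mean had been subtracted from log2(FPKM + 0.01). None of the 6 pairs passed adjustment over the 6 by the exact permutation test within groups. The highest correlation was between TPPP3 and LOC102397197, with r = 0.65 (exact p = 0.0525, adjusted p = 0.158) and rho = 0.46 (exact p = 0.153, adjusted p = 0.459). It was 0.78 among control and 0.26 among treated animals, and 0.32 without control replicates 1 and 6, the animals farthest from the median of TPPP3. Such values without the 2 farthest animals keep the group means of all animals, whereas for other omissions the means were taken anew. TPPP and LOC102397197 had r = 0.58 (exact p = 0.0479, adjusted p = 0.158) and rho = 0.55 (exact p = 0.0819, adjusted p = 0.459). That relation was 0.74 among control and 0.44 among treated animals, and it was 0.13 without control replicate 6 and treated replicate 6, the animals farthest from the median of TPPP. Leaving out control replicate 6 alone gave 0.36, and leaving out treated replicate 6 alone gave 0.68. TPPP3 and TPPP had r = 0.38 (exact p = 0.218, adjusted p = 0.352) and rho = 0.30 (exact p = 0.379, adjusted p = 0.603), with 0.76 among control and -0.18 among treated animals. CEP70 had r = 0.09 with TPPP3, -0.43 with TPPP and -0.19 with LOC102397197, and the exact p-values ranged from 0.235 to 0.731. Without control replicate 6 and treated replicate 6, the r of CEP70 with TPPP turned to 0.49.

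**Figure D4:**
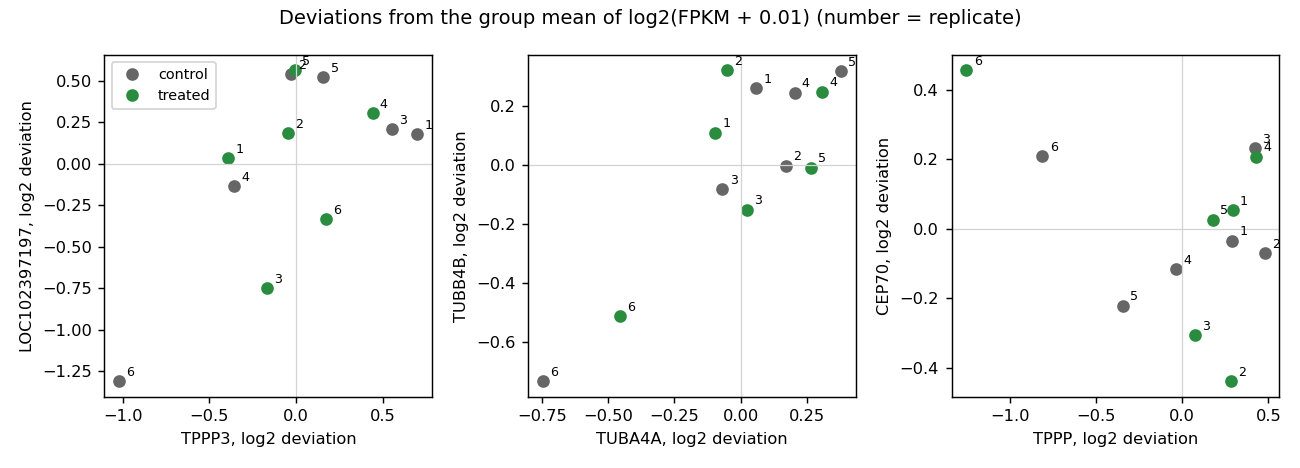
Deviation of each animal from its group mean of log2(FPKM + 0.01) for 3 pairs of genes (control animals grey, treated animals green, replicate numbers beside the points). Control replicate 6 lies at the lower left for TPPP3 with LOC102397197, both animals numbered 6 lie at the lower left for TUBA4A with TUBB4B, and both lie at the upper left for TPPP with CEP70.

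The correlations of the tubulins are given as descriptions over 12 animals, in which the values of 1 animal share library and depth. Within groups, the 10 pairs of the 5 tubulins had r between 0.34, for TUBB with TUBB6, and 0.85, for TUBA4A with TUBB4B. LOC102397197 had r = 0.79 with TUBA4A, 0.74 with TUBB4B, 0.66 with TUBB6 and 0.41 with TUBB. TPPP had r = 0.71 with TUBB, 0.69 with TUBB4B and 0.64 with TUBA4A, and TPPP3 had 0.50 with TUBA4A, 0.49 with TUBB4B and -0.04 with TUBB. CEP70 had negative r with TUBA4A (-0.46), TUBB (-0.59) and TUBB4B (-0.59). Control replicate 6 and treated replicate 6 were the lowest of their groups in both TUBA4A, with 241 and 297 FPKM, and TUBB4B, with 94.7 and 118 FPKM.

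The genes closest to each of the 4 by within-group r over 12 animals came from the 12657 tested genes, and none of the 5 closest was a tubulin. For TPPP3 they were TMEM223 (r = 0.89), CYSTM1 (0.89), KCTD19 (0.88), TPST2 (0.88) and TCAP (0.88). For TPPP they were MBTPS1 (r = 0.99), NUDT21 (0.96), CARS2 (0.96), AGPAT3 (0.95) and DNPH1 (0.95). For LOC102397197 they were BDKRB1 (r = 0.93), MPND (0.92), MPP1 (0.91), ZGPAT (0.88) and ARFGAP2 (0.88), with TUBA4A at position 76. For CEP70 they were PSMB7 (r = 0.94), BEND7 (0.94), COL15A1 (0.93), COMMD1 (0.92) and RBMS3 (0.92). Such values are the extremes of a long list over few animals and are not tests.

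The variation within groups was also set against scores for 9 cell types or states, each the mean z-score of the marker genes detected in every animal. Of 72 combinations of the 8 genes with the scores, 11 had an exact p-value under 0.05 and 2 passed adjustment over the 72, both with TUBB. TUBB followed the score of the basal epithelium with r = 0.91 (exact p = 0.000318, adjusted p = 0.0213) and rho = 0.87 (exact p = 0.000895, adjusted p = 0.0644). The correlation was 0.95 among control and 0.91 among treated animals and 0.78 without the animals farthest from the median score, control replicate 6 and treated replicate 6. TUBB followed the score of cell division with r = 0.93 (exact p = 0.000592, adjusted p = 0.0213) and rho = 0.72 (exact p = 0.0171, adjusted p = 0.247). The latter was 0.61 among control and 0.98 among treated animals, and 0.72 without treated replicates 1 and 6. Without treated replicate 6 alone, r was 0.78 for the basal epithelium and 0.82 for cell division, and neither passed the exact test after adjustment (adjusted p = 0.16 for both). Both calls were also lost without control replicate 1, treated replicate 3 or treated replicate 4, and that with cell division without treated replicate 1, 2 or 5, with r between 0.90 and 0.93 and exact permutation p-values of 0.0646 to 0.109 after adjustment.

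The chosen genes had weaker relations of the same kind. TPPP had r = 0.84 with the score of the basal epithelium (exact p = 0.00765, adjusted p = 0.161), which fell to 0.34 without control replicate 6 and treated replicate 6. LOC102397197 had r = 0.61 with that score (exact p = 0.0256, adjusted p = 0.205), and TPPP3 had r = 0.19 (exact p = 0.503). TPPP3 had its highest r with the endothelial score, at 0.63 (exact p = 0.0192, adjusted p = 0.178), with 0.63 among control and 0.85 among treated animals. CEP70 had its highest r, 0.72, with the score of enteric glia and neurons, which rests on 1 gene (exact p = 0.0159, adjusted p = 0.178). It had r = 0.70 with the fibroblast score (exact p = 0.0289, adjusted p = 0.208), where TUBB had r = -0.74 (exact p = 0.0116, adjusted p = 0.167). The score of basal epithelium differed between the groups by 0.25 SD units in favour of the treated group, and its part in the differences of TPPP and LOC102397197 between diets was not tested.

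**Figure D5:**
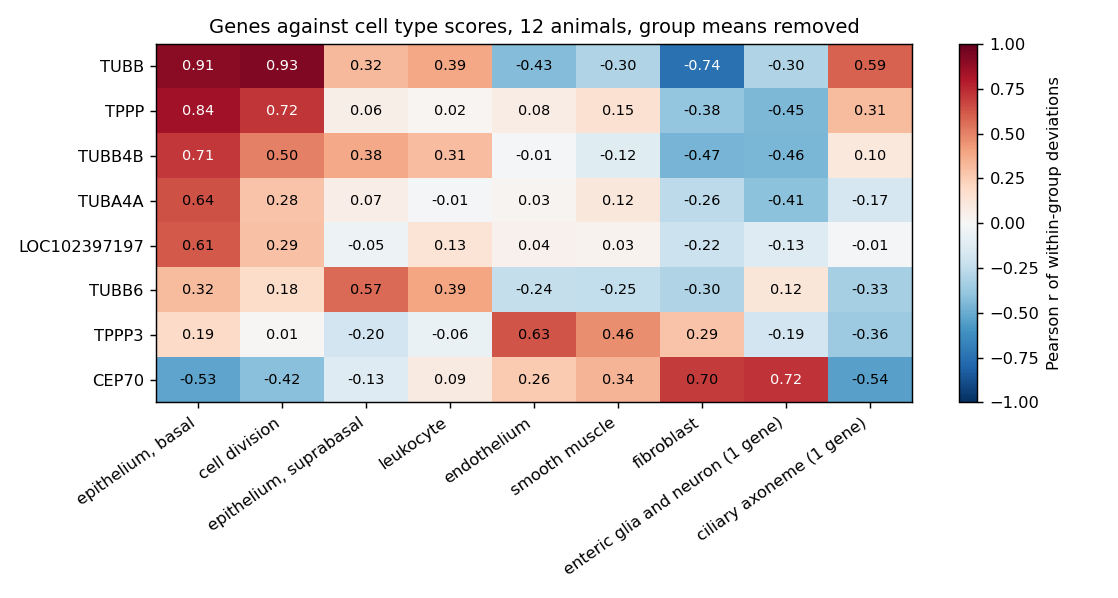
Pearson r (colour and number) between each of the 8 genes (rows) and the scores of 9 cell types or states (columns) over 12 animals with group means removed. TUBB has the highest values, 0.93 with cell division and 0.91 with the basal epithelium, TPPP has 0.84 with the basal epithelium, and TPPP3 has its highest value, 0.63, with the endothelium; the scores of glia and of cilia rest on 1 gene each.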

How the data were processed

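Total RNA libraries of the ruminal wall of 12 buffaloes were sequenced by the authors, who trimmed reads with Trimmomatic 0.39, aligned them to UOA_WB_1 with STAR 2.5.2b and counted fragments per gene and strand with featureCounts 2.0.0 under a minimum mapping quality. The values deposited by the authors are FPKM, in which fragments are divided by gene length and by the total counted in that animal. Of the 16 columns, 12 matched the sample labels, and 4 without a sample description were not used. Reads behind the FPKM were worked out from their whole-read steps, within 8.1e-10 of a whole number. A gene was tested if 1 animal or more had 41.64 reads after TMM scaling, which held for 12657 genes.

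Tests used limma 3.58.1 in R 4.3.3 (lmFit, eBayes with trend) on log2(FPKM + 0.01), p-values were adjusted over all tested genes by Benjamini-Hochberg, and correlations were tested by exact permutation within groups (two-sided, Python 3.11.15, numpy 2.4.6, scipy 1.17.1). A score is the mean z-score of the listed genes detected in all animals. The limma step was tested on simulated data. The genes and lists were chosen with earlier results of these data known. Named from the lists were genes with a nominal p-value under 0.05 (at most 5) and the 2 with the highest mean FPKM, and for 4 genes the 5 most alike. Alternatives were pseudocounts of 0.1 and 1, other filters, TMM or median-ratio rescaling, robust limma, voom on the reads, the replicate number as a block, the omission of each animal, and the muscle and fibroblast score as a covariate. Gene order came from RefSeq (NDDB_SH_1), where 8 of 8 genes matched by identifier and 6 carried the same symbol. TUBA4A has the name LOC102397626 there. Figures were drawn with matplotlib 3.10.9.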

Additional observations from a re-analysis of the deposited data

Results flagged for a closer look

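In the treated group, TPPP of replicate 6 was at 3.03 FPKM, far below the other 5 animals, and its gap to the next animal was 0.682 of the whole range, above the critical value of Dixon's test for 6 animals. Among the 16 groups of values checked (8 genes in 2 groups) this was the 1 value so marked, and chance marks about 1 in 20 such groups. The same animal was the lowest of the treated group in TUBA4A, TUBB and TUBB4B and the highest in CEP70, and its score of the basal epithelium was -1.64, the lowest of the 12 animals. The part of these values in the TPPP level was not tested.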

How the results depend on the processing

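The log2 differences of TPPP3 (0.83 to 1.21), TPPP (0.46 to 0.87), LOC102397197 (0.83 to 1.25) and CEP70 (0.32 to 0.55) stayed above 0 in 23 of 23 alternatives. TPPP3, TPPP, LOC102397197 and CEP70 were chosen by this contrast in the same animals, so that their constant sign is no separate evidence. The log2 differences of TUBA4A, TUBB, TUBB4B and TUBB6 took both signs. The count of microtubule genes with a nominal limma p-value under 0.05, 1 in the comparison reported, ranged from 0 to 3 with single animals left out. It was 2 with the muscle and fibroblast score as a covariate (1.74% against 2.54% of all genes). Without control replicate 6 and treated replicate 6 (chosen after seeing the data) it was 2 as well (1.74% against 2.49% of all genes). Under the replicate block it was 3 (2.61% against 2.57% of all genes). The 0 came from leaving out control replicate 1 or 4 or treated replicate 3, with 1.36%, 1.22% and 1.13% of all genes called at a nominal p-value. The 3 came from leaving out treated replicate 5 (2.61% against 1.53% of all genes). The count of correlations with cell type scores that passed adjustment, 2 in the comparison reported, ranged from 0 to 3 with single animals left out. It was 3 without control replicate 5, 1 without treated replicate 2 or 5, 0 without control replicate 1 or treated replicate 3, 4 or 6, 0 without control replicate 6 and treated replicate 6, and 0 with the replicate block. Over these alternatives the r of TUBB ran from 0.59 to 0.94 with the basal epithelium, lowest under the block (exact permutation, adjusted p = 0.741), and from 0.82 to 0.95 with cell division, where it was 0.91 under the block (exact permutation, adjusted p = 0.471). The causes were not tested. All 6 correlations among TPPP3, TPPP, LOC102397197 and CEP70 stayed short of the adjusted threshold in 19 of 19 alternatives each.

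The replicate numbers come from the sample descriptions, and the sample titles carry other numbers for some animals. Neither gives a pairing between the groups, and animals of the same number are different animals. Their deviations correlated at 0.21 on average over 6 pairs (-0.01 to 0.42) against -0.04 for other pairs, and 8 of 12 animals correlated best with their own number. With the block, 325 of 12657 genes had a nominal p-value under 0.05, against 158. Without treated replicate 6 there were 328.

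Precision is limited by the number of animals and, for TPPP, TPPP3 and CEP70, by as few as 118, 98 and 114 reads per animal.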
